A study of Arabidopsis thaliana with 15 samples.

Results

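Leaf transcript levels of 2 single mutants of the Arabidopsis type 1 protein phosphatase system, topp4-1 and pp1r3-2, were set against each other directly. The comparison rests on 6 of the 15 libraries of the series, 3 of topp4-1 and 3 of pp1r3-2, and on the 20037 of 33024 genes in the count table that had enough counts to be tested. The labels give each mutant by its allele name in the Columbia-0 ecotype and name no treatment. The 3 wild-type Columbia-0 libraries are given beside them as a point of orientation. All plants were sampled as leaves at 21 days after germination, from a greenhouse with 16 h of light and 8 h of dark at 23 °C. The other libraries of the series, the double mutant pp1r3-2 topp4-1 and the septuple mutant topp-7m, entered the fit for its estimate of the spread. Whether libraries of 1 genotype come from different plants is not stated in the labels, so p-values measure only how these libraries vary, which may in part be technical.

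Type 1 protein phosphatases are serine and threonine phosphatases whose small catalytic subunit gains its substrates and its place in the cell from regulatory subunits. In Arabidopsis the catalytic subunits are the TOPP proteins, and the title of the series names PP1R3 as a regulatory subunit of them. The topp4-1 allele has been described as a missense change that acts in a dominant-negative way, so its transcript is still made and its level does not check the label. Type 1 phosphatases of plants have been linked to growth hormones, light signalling, abscisic acid signalling and the restraint of immune responses. The table holds no gene with the symbol PP1R3, so the gene hit by pp1r3-2 was not checked by name.

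The total count was 18652357 to 20756997 per topp4-1 library, 17962200 to 20475286 per pp1r3-2 library and 18362312 to 19153778 per wild-type library. Libraries of 1 genotype differed from each other by more than sampling noise. The chi-square per gene was 5.67 to 6.65 between topp4-1 libraries, 11.8 to 17.3 between pp1r3-2 libraries and 13.4 to 22.8 between wild-type libraries. Each library was counted as 1 replicate, although such a spread does not show that the libraries came from different plants. Levels are given as CPM, the count of a gene scaled to a fixed library size after TMM normalization. Seed markers were at most 0.10 CPM in sum in topp4-1 leaves and 0.05 CPM in pp1r3-2 leaves, with SESA1 and CRU3 at 0 in both mutants. Of 5 root markers, RHD6 and RHS12 of root hairs were at 0 in both mutants, and the sum of the list was 265 to 297 CPM in topp4-1 and 137 to 340 CPM in pp1r3-2, most of it PYK10. The 9 flower and meristem markers summed to 8.05 to 17.2 CPM in topp4-1, 6.09 to 12.8 CPM in pp1r3-2 and 3.27 to 6.11 CPM in wild type.

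The 2 mutants differed in a large share of the leaf transcriptome. Between topp4-1 and pp1r3-2, 8687 of 20037 genes (43.4%) were called, that is, had an adjusted p under 0.05 (edgeR quasi-likelihood F test, Benjamini-Hochberg correction across the tested genes). Of these, 4275 (21.3%) were higher and 4412 (22.0%) were lower in topp4-1. The genes called lower moved further, with a median log2 fold change of -0.81 against 0.56 for those called higher, while the median of all genes was 0.0079. A change of at least 2-fold was reached by 1139 genes (5.68%) that were higher and 1707 (8.52%) that were lower. At 16-fold the order turned, with 78 genes higher and 32 lower. In 57.9% of the genes tested the libraries of the mutants did not overlap, with topp4-1 the higher in 29.5% and the lower in 28.4%. Against wild type the same fit called 53.5% of genes in topp4-1 and 19.3% in pp1r3-2, and these comparisons share the wild-type libraries. Because whole leaves were sampled, fewer cells of a type and less RNA per cell cannot be told apart in these results. Values in brackets after a gene are its log2 fold change, topp4-1 over pp1r3-2, with the standard error (SE) where 1 is given, and intervals are 95% intervals of the same quantity.

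**Figure D1:**
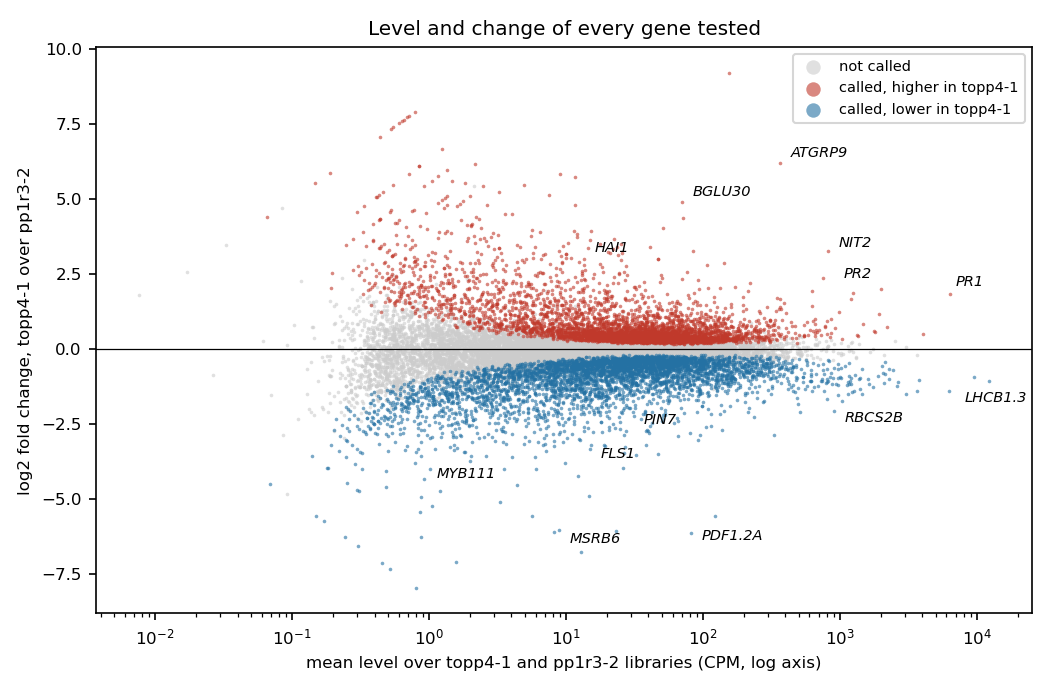
Log2 fold change of topp4-1 over pp1r3-2 (vertical axis) against the mean level over the 6 libraries in CPM (horizontal log axis), 1 point for each of the 20037 genes tested. Called genes lie at every level, 4275 above and 4412 below 0, and the abundant photosynthesis genes LHCB1.3 and RBCS2B lie below 0 while PR1 and PR2 lie above it.

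Of the 9 TOPP genes, 5 (55.6%) were higher in topp4-1 and none was lower, beside 21.3% and 22.0% of all genes. The median log2 fold change was 0.29, and no TOPP gene reached 2-fold. TOPP4, the gene altered in topp4-1, had 38.2, 37.5 and 34.6 CPM in topp4-1 and 28.3, 30.1 and 31.6 CPM in pp1r3-2, and it had 30.1, 32.9 and 29.4 CPM in wild type. The topp4-1 and the pp1r3-2 libraries did not overlap, and TOPP4 was called higher in topp4-1 (log2 fold change 0.29 ± 0.09, adjusted p = 0.0135). TOPP1, the most abundant of the 9, had a log2 fold change of 0.34 ± 0.11, TOPP3 0.42 ± 0.09 and TOPP8 0.29 ± 0.09, all called higher. AT5G43380, which the table calls TOPP7 and the reference annotation TOPP6, was called at 0.76 ± 0.25 from a low level of 3.82 ± 0.916 CPM in topp4-1 and 2.25 ± 0.262 CPM in pp1r3-2 (SD, n = 3 each). When single libraries were left out, the calls of TOPP1, TOPP4, TOPP7 and TOPP8 were each lost at least once. The list then had 3 calls without topp4-1 replicate 1, topp4-1 replicate 3 or pp1r3-2 replicate 1, and 2 calls without pp1r3-2 replicate 2. For the other 4 the 95% intervals were -0.12 to 0.24 for TOPP2, -0.33 to 0.11 for TOPP5, -0.25 to 0.11 for TOPP6 and -0.34 to 0.22 for TOPP9. TOPP6 here is AT4G11240, as the names TOPP6 and TOPP7 follow the count table.

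Among genes called with a symbol, a nuclear protein-coding annotation, a mean of at least 5 CPM and no overlap between the mutants, ATGRP9 had the highest log2 fold change. Genes without a symbol or at lower levels can lie beyond it, and the 12 highest of those that meet these conditions are described here. ATGRP9, which encodes a glycine-rich protein, had 842, 732 and 599 CPM in topp4-1 and 11.5, 6.8 and 10.9 CPM in pp1r3-2, and it had 28.7, 16.4 and 22.2 CPM in wild type. Every topp4-1 library lay far above all pp1r3-2 and wild-type libraries, and the log2 fold change over pp1r3-2 was 6.22 ± 0.26 SE, adjusted p = 2.74e-09. DXPS1, a deoxyxylulose phosphate synthase-like gene, M17, a late embryogenesis abundant protein gene, and ATHB-53, a homeodomain-leucine zipper factor, followed with 5.83, 5.73 and 5.15. BGLU30, a beta-glucosidase gene also known as DIN2 and switched on in the dark, had 152, 103 and 155 CPM in topp4-1 and 5.92, 2.45 and 5.14 CPM in pp1r3-2. Its groups lay apart (log2 fold change 4.91 ± 0.42 SE, adjusted p = 2.43e-06). DOX1, an alpha-dioxygenase that oxidises fatty acids during defence, had 186, 82.4 and 140.1 CPM in topp4-1 and 2.28, 10.2 and 7.31 CPM in pp1r3-2. The groups did not overlap there either (log2 fold change 4.38 ± 0.55 SE, adjusted p = 6.72e-05). The others of the 12 were the laccase gene LAC7 (4.82), the calcium pump gene ACA13 (4.03), HIPP22 (3.95), the U-box ubiquitin ligase gene PUB19 (3.90), the thioredoxin gene TRX8 (3.83) and the carboxypeptidase-like gene SCPL14 (3.79). DXPS1 and ATHB-53 depend on pp1r3-2 replicate 2, without which they stood at 9.09 and 5.79, and LAC7 on pp1r3-2 replicate 3, without which it stood at 5.79.

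Under the same conditions the 12 lowest fold changes included 4 plant defensin genes, the reductase gene MSRB6 and the genes ACT and DTX18 of hydroxycinnamic acid amide defence. PDF1.2A, the standard marker of combined jasmonate and ethylene signalling, had 0.356, 0.619 and 5.72 CPM in topp4-1 and 183, 179 and 125 CPM in pp1r3-2, and it had 759, 321 and 762 CPM in wild type. All topp4-1 libraries lay under all pp1r3-2 libraries, although topp4-1 replicate 3 was well above the other two, and the log2 fold change was -6.13 ± 1.01 SE, adjusted p = 0.000589. PDF1.2C (-6.05), PDF1.3 (-5.56) and PDF1.2B (-4.21) moved with it, but these copies are nearly identical and cannot be read singly. ACT, which makes the amide coumaroylagmatine, had 0, 0.155 and 0.503 CPM in topp4-1 and 13.1, 11.3 and 9.11 CPM in pp1r3-2. Its groups lay apart (log2 fold change -5.57 ± 1.03 SE, adjusted p = 0.00109), and DTX18, which exports that amide, had a log2 fold change of -3.51. MSRB6, a methionine sulfoxide reductase gene, had 0.153, 0.206 and 0.412 CPM in topp4-1 and 22.8, 14.1 and 15.4 CPM in pp1r3-2, which did not overlap (log2 fold change -6.02 ± 0.43 SE, adjusted p = 1.92e-07). The remaining genes of the 12 were the wall enzyme gene XTH6 (-3.50), the flavonol synthase gene FLS1 (-3.33), the nitrate transporter gene NPF1.2 (-3.25), the peroxidase gene PER39 (-3.22) and TBL45 (-3.21). Without topp4-1 replicate 3 the falls were deeper, at -8.37 for PDF1.2A, -7.61 for PDF1.2C, -7.07 for ACT, -6.31 for PDF1.3, -5.43 for PDF1.2B, -3.95 for NPF1.2 and -5.37 for PER39.

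**Figure D2:**
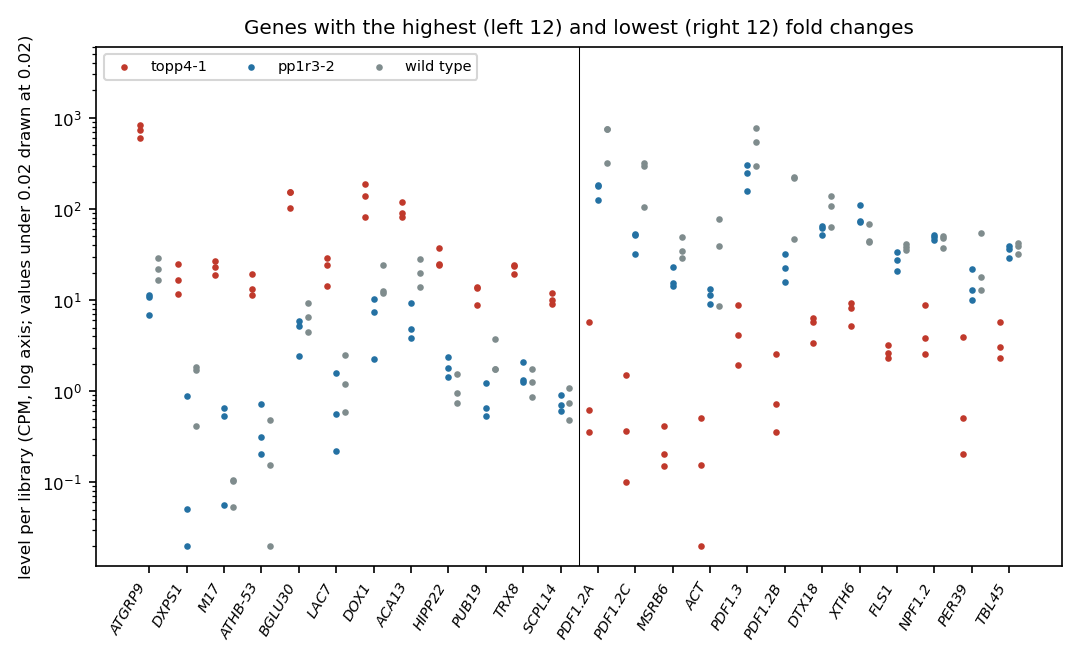
Level per library in CPM (log axis, values under 0.02 drawn at 0.02) of the 12 genes with the highest and the 12 with the lowest fold changes under those conditions, 3 libraries each of topp4-1, pp1r3-2 and wild type. In every gene the 3 topp4-1 points lie apart from the 3 pp1r3-2 points, as the choice of genes required.

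The 300 bases upstream of 6 genes are shown because these genes head the 2 directions or the lists described next, so a reader can see which known motifs stand there. They were read from the TAIR10.1 genome on the strand of the gene, 5′ to 3′, and end at the base before the annotated start. Capitals mark the motifs searched on both strands: the G-box CACGTG, the W-box core TTGACN, the GCC-box GCCGCC, the evening element core AATATCT and the DRE core CCGAC.
ATGRP9, chr2:1992738-1993037, plus strand: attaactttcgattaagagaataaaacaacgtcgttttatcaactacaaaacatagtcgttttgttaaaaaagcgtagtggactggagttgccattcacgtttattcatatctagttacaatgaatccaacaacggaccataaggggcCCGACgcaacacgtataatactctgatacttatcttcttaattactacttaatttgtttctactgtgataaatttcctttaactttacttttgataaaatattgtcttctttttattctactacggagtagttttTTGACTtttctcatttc
PDF1.2A, chr5:17907639-17907938, minus strand: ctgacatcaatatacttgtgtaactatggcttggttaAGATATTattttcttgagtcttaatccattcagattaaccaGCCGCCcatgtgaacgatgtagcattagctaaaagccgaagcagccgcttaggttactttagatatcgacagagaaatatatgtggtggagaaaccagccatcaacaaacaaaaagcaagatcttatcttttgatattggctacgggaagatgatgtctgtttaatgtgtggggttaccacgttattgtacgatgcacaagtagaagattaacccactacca
WRKY51, chr5:25907947-25908246, plus strand: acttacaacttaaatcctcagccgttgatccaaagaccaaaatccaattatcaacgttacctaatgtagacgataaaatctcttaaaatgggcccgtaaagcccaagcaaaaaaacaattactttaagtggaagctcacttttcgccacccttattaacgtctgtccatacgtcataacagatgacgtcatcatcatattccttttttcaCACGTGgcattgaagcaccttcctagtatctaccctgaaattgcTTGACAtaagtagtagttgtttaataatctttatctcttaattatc
RBCS2B, chr5:15382072-15382371, minus strand: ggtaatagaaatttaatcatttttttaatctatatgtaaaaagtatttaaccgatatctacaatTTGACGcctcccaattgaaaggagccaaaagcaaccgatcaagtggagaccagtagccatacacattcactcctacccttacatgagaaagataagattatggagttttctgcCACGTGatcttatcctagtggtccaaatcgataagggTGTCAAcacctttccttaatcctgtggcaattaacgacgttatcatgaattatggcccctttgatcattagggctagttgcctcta
FLS1, chr5:2803533-2803832, plus strand: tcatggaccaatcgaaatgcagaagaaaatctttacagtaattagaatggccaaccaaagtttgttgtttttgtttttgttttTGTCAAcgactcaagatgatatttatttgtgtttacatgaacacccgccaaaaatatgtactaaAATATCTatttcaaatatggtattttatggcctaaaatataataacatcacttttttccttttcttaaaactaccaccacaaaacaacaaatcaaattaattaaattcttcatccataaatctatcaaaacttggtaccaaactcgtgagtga
CYP94B3, chr3:17976775-17977074, minus strand: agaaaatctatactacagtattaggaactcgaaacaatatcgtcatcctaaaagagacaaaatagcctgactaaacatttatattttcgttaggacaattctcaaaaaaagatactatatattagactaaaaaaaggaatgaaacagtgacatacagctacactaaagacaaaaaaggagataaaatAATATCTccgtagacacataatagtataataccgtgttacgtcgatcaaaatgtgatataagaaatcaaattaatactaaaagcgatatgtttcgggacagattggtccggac
The GCC-box of PDF1.2A, the element that ERF factors bind, began 222 bases upstream of its start. Among 19318 promoters of protein-coding genes tested, 2.36% held a GCC-box, 8.03% a G-box, 50.3% a W-box core, 11.9% the evening element core and 15.0% the DRE core. The W-box core was in 59.6% of the promoters of genes at least 2-fold higher in topp4-1 and in 45.3% of those at least 2-fold lower. For the evening element core these shares were 15.3% and 11.9%. A match is a stretch of letters and not a shown binding site, and differences in base composition between the sets were not tested.

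ATGRP9 stands in a row of glycine-rich protein genes on chromosome 2 (TAIR10.1, 1993038 to 1994177 for ATGRP9). Its neighbour AT2G05510, which has no symbol and was picked out after its values were seen, averaged 308 ± 58.6 CPM in topp4-1 and 0.512 ± 0.291 CPM in pp1r3-2 (SD, n = 3 each), a log2 fold change of 9.21 ± 0.50. GRP3S of the same row was higher by 0.74, while GRP3 at 0.08 ± 0.16 and AT2G05540 at -0.33 ± 0.38 (log2 fold change ± SE) were not called. These 5 genes carry the same glycine-rich protein domain in the deposited annotation, and how reads shared between them were counted is not given in the sources used here.

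Photosynthesis genes were lower in topp4-1 throughout. All 36 tested genes of the photosystems and light-harvesting antennae were called lower, with a median log2 fold change of -1.08 and 22 of them at least 2-fold lower, against 22.0% of all genes called lower. LHCB1.3, an antenna protein gene of photosystem II and among the most abundant transcripts, had 7804, 8729 and 7664 CPM in topp4-1 and 17072, 14198 and 18662 CPM in pp1r3-2. Its groups lay apart (log2 fold change -1.05 ± 0.14 SE, adjusted p = 2e-05). The photosystem I subunit genes PSAN (-1.54) and PSAK (-1.49) fell most. LHCB1.1, another antenna gene of photosystem II, averaged 1998 ± 237 CPM in topp4-1, 5283 ± 929.5 CPM in pp1r3-2 and 2685 ± 465 CPM in wild type (SD, n = 3 each). It does not stand for the list, whose median log2 fold change against wild type was -0.83 in topp4-1 and 0.16 in pp1r3-2. Both medians rest on the same 3 wild-type libraries.

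The 10 Calvin cycle genes were all lower too, against 22.0% of all genes, with a median of -1.24. RBCS2B, a small subunit gene of Rubisco, had 293, 406 and 344 CPM in topp4-1 and 1391, 1539 and 1456 CPM in pp1r3-2. No topp4-1 library reached a pp1r3-2 library (log2 fold change -2.07 ± 0.15 SE, adjusted p = 1.1e-07). RCA, the activase that keeps Rubisco working, averaged 3425 ± 241 CPM in topp4-1 and 9027 ± 998 CPM in pp1r3-2 (SD, n = 3 each), and SBPASE, an enzyme of the regeneration phase, had a log2 fold change of -1.44. Within the LHCB1, LHCB2 and RBCS groups the copies are so alike that a single gene's value is uncertain. The share of counts from chloroplast-encoded genes was 0.0104 to 0.0111% in topp4-1, 0.018 to 0.0208% in pp1r3-2 and 0.0171 to 0.0813% in wild type. Libraries were poly-A selected, so this is not a measure of chloroplast transcription, and its part in the result was not tested.

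**Figure D3:**
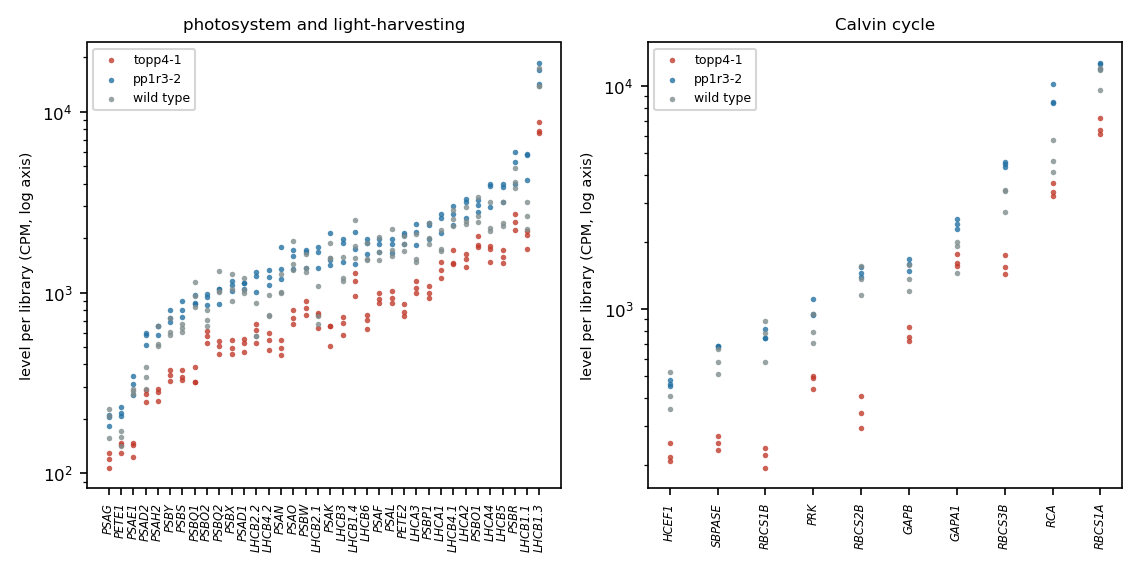
Level per library in CPM (log axis) of the photosystem and light-harvesting genes (left) and Calvin cycle genes (right), ordered by level in pp1r3-2, for topp4-1, pp1r3-2 and wild type, 3 points each. All 36 genes on the left and all 10 on the right were called lower in topp4-1 than in pp1r3-2.

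Chlorophyll genes split by their role. The synthesis genes GUN5 (-1.18), PORC (-0.83), HEMA1 (-0.76) and CAO (-0.70) were lower in topp4-1, and the breakdown genes NYE2 (1.44), NYE1 (0.67), PPH (0.66), NYC1 (0.65) and PAO (0.52) were higher. PORA and PORB were not called, with 95% intervals of -0.26 to 0.90 and -0.48 to 0.01. Of 12 leaf senescence genes, 7 (58.3%) were higher and none lower, with a median of 0.72, beside 21.3% of all genes called higher. SEN1, a gene of darkened and ageing leaves, had 518, 644 and 566 CPM in topp4-1 and 214, 156 and 229.7 CPM in pp1r3-2, without overlap (log2 fold change 1.53 ± 0.28 SE, adjusted p = 0.000615). SAG13 (1.44), SAG20 (1.34) and NAC016 (1.31) were also higher. SAG12, the classical late marker, had 209, 5 and 34 counts in topp4-1 and 0, 4 and 1 counts in pp1r3-2 and was not called (interval -0.20 to 11.09).

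Of 15 genes of dark and sugar starvation, 10 (66.7%) were higher and 1 (6.67%) was lower, with a median of 0.73, beside 21.3% and 22.0% of all genes. ASN1, an asparagine synthetase that stores nitrogen when sugar is short, had 1258, 1339 and 1211 CPM in topp4-1 and 307, 176 and 243 CPM in pp1r3-2. The groups lay apart (log2 fold change 2.39 ± 0.43 SE, adjusted p = 0.000749). DIN4 (1.60), MCCA (1.07) and IVD, which break down branched-chain amino acids, were higher, while DIN11 was lower. The call of DIN11 was lost without any 1 topp4-1 library, without pp1r3-2 replicate 1 and with no low-count filter.

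Salicylic acid genes were higher in topp4-1 than in pp1r3-2. Of 25 tested, 19 were higher and none lower, with a median of 0.64, against 21.3% of all genes called higher. PR1, the marker of salicylic acid defence, had 9983, 10421 and 9338 CPM in topp4-1 and 1995, 3435 and 2916 CPM in pp1r3-2, and it had 3589.5, 4205 and 3929 CPM in wild type. All topp4-1 libraries were above all pp1r3-2 libraries, and the log2 fold change was 1.83 ± 0.16 SE, adjusted p = 4.85e-07. PR2, a glucanase (2.02) and PR5, a thaumatin-like protein (1.67), rose too. Upstream of them PBS3, which acts in salicylic acid synthesis (1.74) rose, and so did the regulators CBP60G (1.27) and SARD1 (1.06). WRKY51, a transcription factor gene, had 163, 129 and 125 CPM in topp4-1 and 47.2, 53.1 and 49 CPM in pp1r3-2, with no overlap (log2 fold change 1.48 ± 0.13 SE, adjusted p = 4.68e-07). ICS1, the main synthesis enzyme, was not called, with a 95% interval of -0.01 to 0.77, nor was FMO1 (-0.65 to 0.60).

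Among 21 intracellular NLR receptors 6 were higher and 1 lower, so that 33.3% were called, a smaller share than the 43.4% of all genes. The 6 included the helper receptors ADR1 (0.69), ADR1-L1 (0.54), ADR1-L2 (0.70) and NRG1.2 (0.84). SUMM2 was the 1 that was lower (-1.14), and 2 were lower without pp1r3-2 replicate 1. Of 16 genes of pattern-triggered immunity 4 were called, a share also under the share of all genes. WRKY33 was higher (0.68) and PHI1 (-1.51), LORE (-0.69) and the flagellin receptor gene FLS2 (-0.42) were lower. Without pp1r3-2 replicate 3 the list had 3 genes called higher.

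The median jasmonate gene lay below wild type in both mutants, by a log2 fold change of -1.94 in topp4-1 and -1.75 in pp1r3-2. Both values rest on the same 3 wild-type libraries, so their likeness is not a result. Between the mutants, of 29 tested, 6 (20.7%) were higher and 8 (27.6%) lower in topp4-1, shares near the 21.3% and 22.0% of all genes. The synthesis genes AOC1 (-1.68), AOS (-1.14) and AOC2 (-1.06) were lower in topp4-1, as were the repressor genes JAZ9 (-1.35) and JAZ6 (-1.17), and AOS averaged 40.6 ± 6.22 CPM in topp4-1, 89.5 ± 25.9 CPM in pp1r3-2 and 259 ± 96.7 CPM in wild type (SD, n = 3 each). JAZ10 (1.11) and the jasmonate oxidase gene JOX4 (2.80) were higher. CYP94B3, which inactivates the hormone by oxidation, had 85, 56 and 68 counts in topp4-1, 0, 3 and 3 counts in pp1r3-2 and 365, 563 and 796 counts in wild type. Its topp4-1 libraries lay between the other groups. OPR3 and LOX2 were not called between the mutants, with 95% intervals of -0.59 to 0.31 and -0.57 to 0.43.

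In the ethylene and jasmonate branch, 6 of 13 genes (46.2%) were lower and 3 (23.1%) higher, beside 22.0% and 21.3% of all genes. ORA59, the ERF factor gene that drives PDF1.2, had 1.83, 2.79 and 3.7 CPM in topp4-1 and 18.1, 20.8 and 27.3 CPM in pp1r3-2. The groups lay apart (log2 fold change -2.98 ± 0.28 SE, adjusted p = 1.64e-06). ERF1B, a related factor gene, was higher (1.12), and so was the defensin gene PDF1.4 (0.86).

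The median of the cold-response and dehydrin list was -1.43 in topp4-1 and -1.44 in pp1r3-2 against wild type, on the log2 scale. These values too share the 3 wild-type libraries, so their likeness is not a result. COR15A, which protects chloroplast membranes in the cold, averaged 4.11 ± 0.497 CPM in topp4-1, 4.22 ± 1.2 CPM in pp1r3-2 and 63.8 ± 32.8 CPM in wild type (SD, n = 3 each), and the difference between the mutants had a 95% interval of -0.92 to 0.84. RD29A was lower in topp4-1 (-1.05), and the dehydrin genes XERO2 (0.99), RAB18 (0.89) and COR47 (0.61) were higher. In all, 7 of 19 (36.8%) were higher and 2 (10.5%) lower, beside 21.3% and 22.0% of all genes, and without topp4-1 replicate 1 only 4 were higher.

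Abscisic acid genes were mostly higher in topp4-1. Of 19 tested, 15 (78.9%) were higher and 2 (10.5%) lower, with a median of 0.98, beside 21.3% and 22.0% of all genes. HAI1, a phosphatase gene that the hormone induces and that restrains its signalling, had 31.5, 21.5 and 19.8 CPM in topp4-1 and 2.73, 3.74 and 2.49 CPM in pp1r3-2. Its groups did not overlap (log2 fold change 3.02 ± 0.32 SE, adjusted p = 4.22e-06). ATHB-7, a homeodomain factor gene of drought, had 129, 116 and 107 CPM in topp4-1 and 13.4, 30.1 and 26.2 CPM in pp1r3-2, with no overlap (log2 fold change 2.34 ± 0.21 SE, adjusted p = 1.41e-06). NAC019 (2.56), RD20 (2.48) and HIS1-3 (2.37) were higher, and RD22 (-1.39) and the hormone-degrading CYP707A3 (-1.97) were lower. NCED3, of hormone synthesis, was not called (-0.07 to 2.04).

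**Figure D4:**
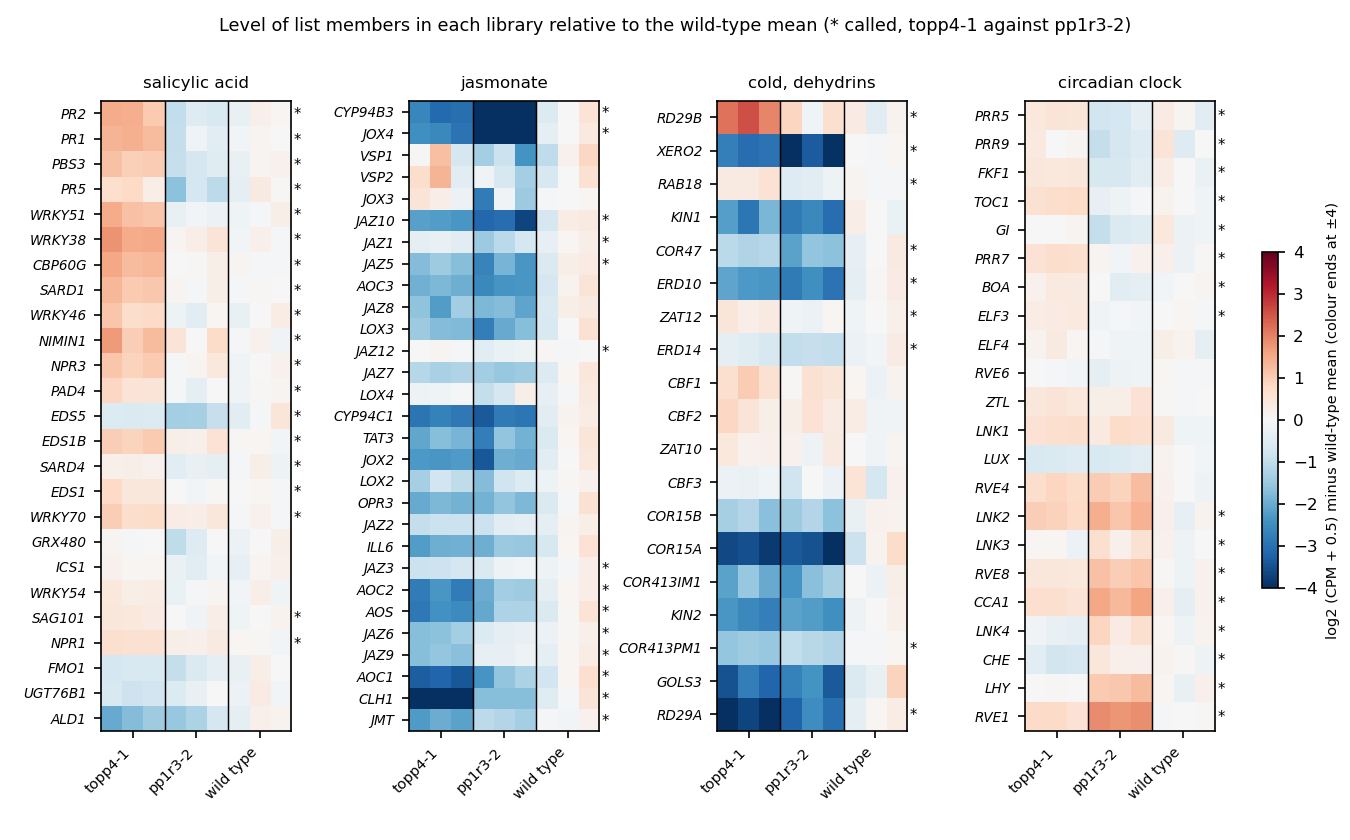
Level of list members in each library as log2 (CPM + 0.5) minus the wild-type mean, with the colour ending at 4 in either direction, for topp4-1, pp1r3-2 and wild type from left to right. Most salicylic acid genes are redder in topp4-1 than in pp1r3-2, many jasmonate and cold genes are blue in both mutants, and an asterisk marks genes called between topp4-1 and pp1r3-2.

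Of 22 clock genes, 8 (36.4%) were higher and 8 (36.4%) lower in topp4-1, beside 21.3% and 22.0% of all genes. The morning genes RVE1 (-1.13), LHY (-1.13), CCA1 (-0.86) and RVE8 (-0.65) were lower in topp4-1, together with LNK2, LNK3, LNK4 and CHE. Genes that peak after them, PRR5, PRR9 (1.03), FKF1 (1.02), TOC1 (0.88), GI (0.71) and PRR7 (0.59), were higher, with ELF3 and BOA. CCA1 had 95.4, 93.3 and 87.6 CPM in topp4-1 and 174, 148 and 181 CPM in pp1r3-2, and it had 69.6, 45.6 and 67.7 CPM in wild type. All topp4-1 libraries lay under all pp1r3-2 libraries and above all wild-type libraries. The labels give no hour of sampling, and its part in these differences was not tested.

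In the auxin list 10 of 22 genes (45.5%) were lower in topp4-1 and 5 (22.7%) higher, beside 22.0% and 21.3% of all genes, with 3 higher without topp4-1 replicate 1 or pp1r3-2 replicate 3. PIN7, an auxin efflux carrier gene, had 8.75, 9.65 and 14.4 CPM in topp4-1 and 54.4, 51.1 and 48.6 CPM in pp1r3-2. The groups lay apart (log2 fold change -2.23 ± 0.19 SE, adjusted p = 4.9e-07). PIN3 (-1.89), PIN4 (-1.26), IAA17 (-2.94) and IAA7 (-1.46) were lower too, while GH3.2 (1.92), GH3.5 (1.36) and GH3.3 (1.29), which conjugate auxin to amino acids, were higher. Of 14 gibberellin genes, 4 (28.6%) were higher and 6 (42.9%) lower, among them the receptor gene GID1B (higher, 0.93), the degrading enzyme gene GA2OX2 (higher, 1.90), the synthesis gene GA3OX1 (lower, -2.08) and the DELLA repressor gene RGA (lower, -0.51). Of 17 wall-loosening genes 8 (47.1%) were lower, including EXPA5 (-2.51) and XTH4 (-1.89), and 3 were higher, XTH19 most (1.76). Of 13 phytochrome and PIF genes 7 (53.8%) were lower, with PKS2 (-2.23) and PKS4 (-1.75) furthest, and PHYA was higher (0.57). Of 7 cell division genes, 0 were called by edgeR, 0 had an unadjusted p under 0.05 and 0 were called by DESeq2, while the edgeR fit of only the 6 libraries called 2 lower. CYCB1;1, a mitotic cyclin gene, had an interval of -1.77 to 0.48.

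Genes of the stomatal lineage were lower in topp4-1, with 13 of 19 called (68.4%, beside 22.0% of all genes) and a median of -1.02. The list summed to 151 to 164 CPM in topp4-1, 215 to 277 CPM in pp1r3-2 and 263 to 288 CPM in wild type. SPCH, which starts the lineage (-1.35), the signal peptides EPF2 (-2.32) and STOMAGEN (-1.62), and the guard-cell gene MYB60 (-1.33) were among them. MUTE was not called (-1.95 to 0.36). Without pp1r3-2 replicate 1 the list had 8 calls.

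Of 16 aliphatic glucosinolate genes 12 were lower, all at least 2-fold, with a median of -1.46, beside 22.0% of all genes called lower. MYB28, the main activator of the pathway, had 9.36, 10.6 and 15.2 CPM in topp4-1 and 51.5, 53 and 45.3 CPM in pp1r3-2. No libraries overlapped (log2 fold change -2.09 ± 0.20 SE, adjusted p = 1.74e-06). MYB29 (-2.48), CYP79F1 (-2.03) and BCAT4 (-1.57) were lower as well, and without topp4-1 replicate 1 or 2 the list had 7 calls. In the indole branch 6 of 15 (40.0%) were higher and none lower, beside 21.3% and 22.0% of all genes, though without wild type replicate 3 a single gene was called lower. NIT2, a nitrilase gene, had 1526, 1436 and 1515 CPM in topp4-1 and 114, 194 and 151 CPM in pp1r3-2. Its groups lay apart (log2 fold change 3.28 ± 0.26 SE, adjusted p = 3.83e-07). Of 12 flavonoid genes tested, 3 (25%) were higher, 4 (33.3%) were lower and 5 were not called, beside 21.3% and 22.0% of all genes. The 4 lower were the flavonol genes MYB111 (-3.99) and FLS1 and the general flavonoid genes CHS (-2.79) and CHI (-1.36). The anthocyanin activators MYB75 and MYB90 (2.59) were among the 3 higher.

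Of 8 heat shock genes 5 (62.5%, beside 22.0% of all genes) were lower, among them the co-chaperone gene ROF2 (-2.43), HSP90-1 (-1.95) and the factor gene HSFA2 (-1.72), and the factor gene HSFB1 was higher (0.98). Of 9 flower and meristem markers only 2 had enough counts to be tested. PI, a petal and stamen identity gene, was higher (1.94), with 103, 78 and 141 counts in topp4-1 and 20, 16 and 41 counts in pp1r3-2. STM was not called (-0.30), with 165, 62 and 186 counts in topp4-1 and 191, 210 and 66 counts in pp1r3-2. FUL was the 1 of 6 flowering-time genes that was called (16.7%, under the 43.4% of all genes), as higher, and FT was not (-2.64 to 0.47). Of the 3 root markers tested only SCR was called (33.3%, also under the share of all genes), as lower (-0.42).

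**Figure D5:**
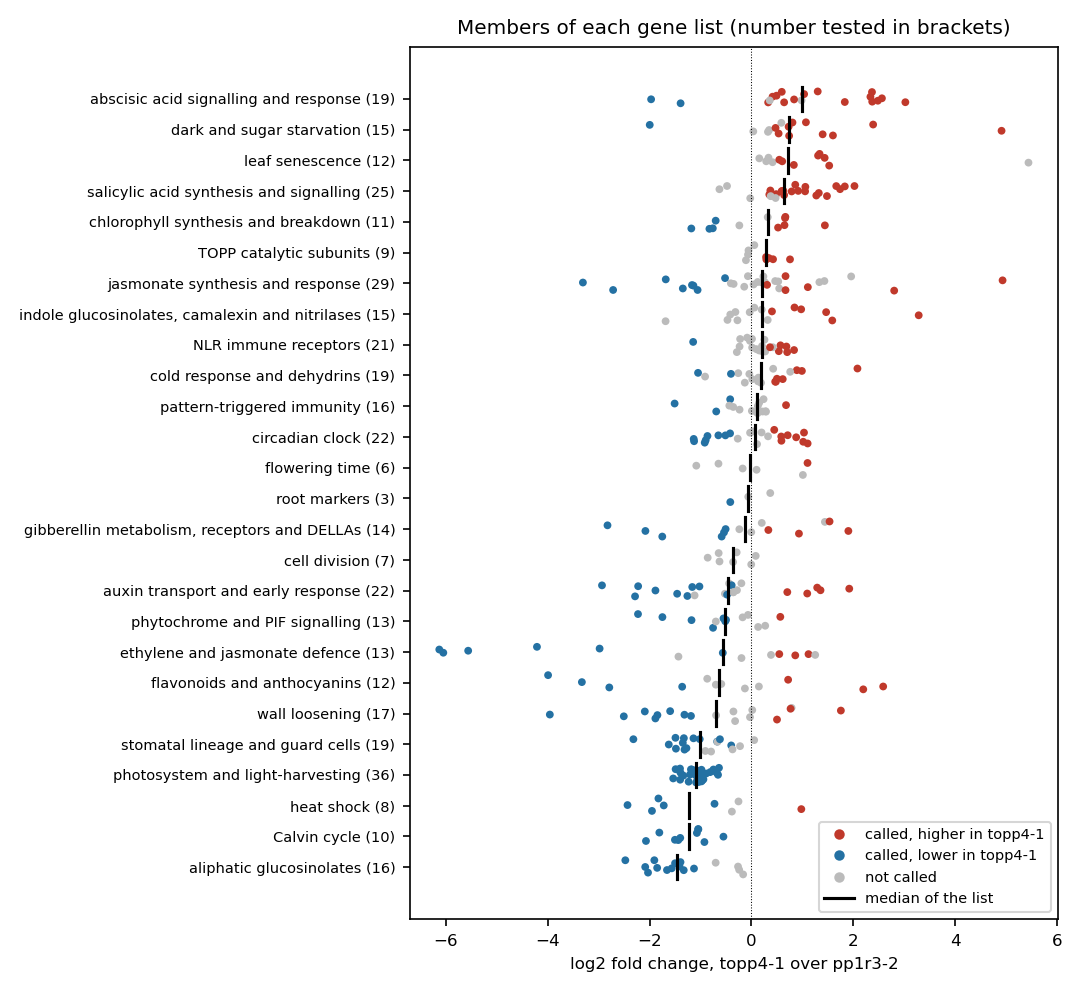
Log2 fold change of topp4-1 over pp1r3-2 for each tested member of the gene lists with at least 3 tested members, with the median of each list as a black bar. The aliphatic glucosinolate list (median -1.46) and the abscisic acid list (median 0.98) lie on opposite sides of 0.

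Among genes that met the same conditions, the largest differences in mean CPM were PR1, PR2, MT2A, PER34, CAT3 and NIT2 on the higher side and LHCB1.3, RBCS1A, RCA, LHCB1.1, PSBR and LHCB5 on the lower side. MT2A, a metallothionein gene, had 2712, 2945 and 2439.6 CPM in topp4-1 and 1227, 1195 and 1147 CPM in pp1r3-2, and CAT3, a catalase gene, had 4267, 5157 and 4728 CPM in topp4-1 and 2864, 3554 and 3519 CPM in pp1r3-2. Their libraries did not overlap, as the choice of genes required, and the log2 fold changes were 1.18 ± 0.13 and 0.51 ± 0.13.

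For some genes wild type lay between the mutants in all libraries. XTH6 had 8.19, 5.16 and 9.37 CPM in topp4-1 and 112, 71.7 and 73.9 CPM in pp1r3-2, and it had 69.1, 44.2 and 43.4 CPM in wild type. All 3 groups were apart, as the choice of these genes required, with pp1r3-2 the highest. The same order held for AGP17, PPT2, BEE3, CIPK20 and NEET, with log2 fold changes of -3.02, -2.86, -2.74, -2.55 and -2.45. In the other direction, with topp4-1 the highest, stood ATGRP9, DOX1, ACA13, PUB19, CAD8 (3.74) and PER22 (3.43).

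The double mutant pp1r3-2 topp4-1 was compared by position for the 24 genes with the highest and lowest fold changes. In all 24 its 3 libraries lay on the pp1r3-2 side of the topp4-1 libraries, and in 23 its range overlapped that of pp1r3-2. These genes were chosen as extremes of the topp4-1 and pp1r3-2 libraries, with no overlap between them. How far this choice bears on the position of a further genotype was not tested. The same positions were not counted over all genes tested, so no conclusion is drawn from these counts. PR1 had 3669, 3398 and 3213 CPM in the double mutant and PDF1.2A had 361, 119 and 66.2 CPM.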

How the data were processed

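The deposited values are raw counts of reads for each gene, as whole numbers; per the submitters' processing notes, HISAT2 2.0.5 aligned the reads. How reads were counted, with which strand setting, build and annotation, is not given in the sources used here, so overlapping genes and near-identical copies are uncertain singly. Of 33024 identifiers, 32548 matched TAIR10.1, with identical start and end for 32532 (99.95%). Genes passed edgeR's filterByExpr (minimum count 10, minimum total 15). All 15 libraries entered 1 quasi-likelihood fit with 1 mean for each genotype (edgeR 4.0.16, limma 3.58.1, R 4.3.3, TMM, robust, 10 residual degrees of freedom), with Benjamini-Hochberg adjustment. SE is the absolute log2 fold change over the square root of F, and intervals are 95%. The depth, about the same in all libraries, limits the precision of genes with few counts. The members and the 28 gene lists were chosen with earlier results of these data known. Named genes were called, had a symbol, a nuclear protein-coding annotation, at least 5 CPM and no overlap: the 12 highest and lowest fold changes, 6 per direction by CPM difference and 6 with wild type between, plus up to 4 per list and the TOPP genes; other list members named for their role were chosen after their values were seen. The promoter of a Calvin cycle gene replaced that of a photosystem gene, whose window overlapped another gene. Alternatives were RLE factors, other filters, DESeq2 1.42.0, the 6 libraries alone, a replicate block, a 2-fold minimum and leaving out libraries.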

Additional observations from a re-analysis of the deposited data

How the results depend on the processing

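The number of genes called was 8692 with RLE factors, 8404 with no low-count filter, 8557 with a filter of 1 CPM in 3 libraries, 9338 in a fit of only the 6 libraries and 9039 with DESeq2, against 8687. Leaving out 1 library gave 6994 to 8244 calls, with 3290 to 3938 higher and 3704 to 4306 lower. With a minimum of 2-fold, 2846 genes were called, 1139 higher and 1707 lower. Leaving out wild type replicate 3, chosen after seeing that its chloroplast-encoded share was the highest, gave 8724. With the replicate number as a block, 8900 were called. The replicate numbers did not pair the samples, with correlations of 0.03, -0.0924 and -0.0974 between the deviations of same-numbered libraries. Of the 136 genes that the naming rule gave, 132 were called and 4 TOPP genes were not. The 132 kept their call and direction under RLE factors, both filters, the 6 libraries alone, the block, DESeq2 and without wild type replicate 3. Among them, leaving out 1 library ended the calls of TOPP1, TOPP4, TOPP7 and TOPP8, and 27 of the 132 were under 2-fold. The 132 were chosen with calls in the main fit, so what they kept does not stand for all genes called. Of the 8687 genes called there, 8325 were also called in the fit of only the 6 libraries. Fits that left out 1 mutant library kept 6869 to 7663 of the 8687. DIN11, named outside the rule, lost its call with no low-count filter and in 4 of the 6 fits that left out 1 library. In the fit of only the 6 libraries, 2 genes were called lower in each of the salicylic acid, indole and cell division lists, against 0 in the fit of all 15. The depth limits genes with few counts, such as CYP94B3 and SAG12.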

Other observations

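Domain families of the deposited annotation were looked at after the values were seen, and no test was made of them. Among 70 tested NAC factor genes (NAM domain), 41 were higher and 4 lower in topp4-1, and among 59 WRKY factor genes 34 were higher and 3 lower, beside 21.3% and 22.0% of all genes. ANAC087 averaged 44.5 CPM in topp4-1 and 5.64 CPM in pp1r3-2, a log2 fold change of 2.98 ± 0.24 (SE), and WRKY59 averaged 19.1 CPM and 1.64 CPM, a log2 fold change of 3.54 ± 0.50. WRKY30 went the other way, with 5.54 CPM in topp4-1 and 23.8 CPM in pp1r3-2. Of 94 genes with a TIR domain, found in many immune receptors, 36 were higher and 8 lower. Of 22 genes with a response regulator domain, 14 (63.6%) were higher and 3 (13.6%) lower. This class also holds the clock genes TOC1, PRR5 and PRR9, which were counted as higher in the clock list too.

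Of 41 SAUR genes, small genes that auxin induces early, 20 (48.8%) were lower and 6 (14.6%) higher, beside 22.0% and 21.3% of all genes, with a median log2 fold change of -1.33. SAUR62 averaged 0.179 CPM in topp4-1 and 6.38 CPM in pp1r3-2, although its near-identical neighbours make it uncertain singly. Of 20 tubulin genes 13 (65.0%) were lower and 1 higher. Of 58 kinesin genes 15 (25.9%) were lower, near the share of all genes, and 2 (3.45%) were higher. Of 21 genes with an FKBP domain, of peptidyl-prolyl isomerases, 12 (57.1%) were lower, among them FKBP13 (log2 fold change -1.45), and 3 were higher, PAS1 (0.51), FKBP20-1 (0.36) and FKBP42 (0.28). Among 83 pentatricopeptide repeat genes, which process organelle RNA, 9.64% were called, against 43.4% of all genes.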
